A study of Homo sapiens with 14 samples.

Results

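The extracellular matrix genes described here are 40 genes for fibrillar, basement membrane and other collagens, laminins, elastic fibre proteins, adhesive glycoproteins and proteoglycans. They were taken by symbol from the count tables, where all 40 were found among 19923 protein-coding genes. Polyadenylated RNA was sequenced from SK-N-BE2, a human neuroblastoma cell line with amplified MYCN, in 14 libraries with 2 per group. Batch 1 held cells given H2O, CoCl2 at 10 µM or CoCl2 at 50 µM, without a genotype change in the labels. Batch 2 held untreated WT cells and 3 lines labelled TET2 knockout 1, 2 and 3. How long CoCl2 was given, how TET2 was disrupted, and whether a knockout number is 1 clone are not given in the sources used here. All groups carry the MYCN amplification of the parent line and were grown in the same serum-containing medium. The labels do not say that the 2 libraries of a group came from separate cultures, so p-values measure the spread between libraries, which may be technical.

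Total counts ran from 31214128 to 39540111 in batch 1 and from 52095024 to 59263320 in batch 2. Of the counts from 1 to 10, 77.3 to 80.5% were even in batch 2 and 39.0 to 42.3% in batch 1, and whether both reads of a pair were counted in batch 2 was not tested. TET2 mRNA was measured at 70.8 and 64.8 CPM (counts scaled by each library's normalised total) in WT, 80.4 and 76.6 in knockout 1, 87.4 and 91.1 in knockout 2, and 68.2 and 75.4 in knockout 3. In batch 1 it was at 77.6 and 81.0 CPM with H2O, 76.8 and 80.9 at 10 µM, and 92.0 and 86.3 at 50 µM. TET2 mRNA was called higher in the mean of the labelled knockouts (log2 fold change 0.23, SE 0.04, edgeR adjusted p 2.5e-06), in knockouts 1 (0.21) and 2 (0.40), and at 50 µM (0.17). Counts per gene do not show an edit, so the knockout could not be checked and each direction below rests on the labels. Adrenergic neuroblastoma markers (PHOX2A, HAND2, GATA3, ISL1, TH, DBH and CHGA) were detected in every group, with a summed level of 2779 to 3804 CPM over the 14 libraries.

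The extracellular matrix is the network of secreted proteins around cells. Fibrillar collagens assemble as trimers into cables, while basement membranes are sheets built from laminin and type IV collagen, joined by nidogen and perlecan. Elastic fibres consist of elastin on a scaffold of fibrillin microfibrils, and adhesive glycoproteins such as fibronectin tie the network to integrins on the cell surface. In neuroblastoma, high expression of matrix genes is a known feature of mesenchymal cells, while adrenergic cells resemble sympathetic neuroblasts. TET2 oxidises 5-methylcytosine to 5-hydroxymethylcytosine, and methylation in mammals lies mostly at CG dinucleotides. Cobalt ions are widely used to mimic low oxygen, because they inhibit the iron-dependent prolyl hydroxylases that mark hypoxia-inducible factors for degradation.

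Since the enzyme under study acts on cytosine in DNA, the sequences just upstream of 5 genes with large differences in the labelled knockouts are shown, with CG dinucleotides in capitals. They come from RefSeq windows on GRCh38.p14 that span 250 bases before to 50 bases after a gene's start, cut to the part outside annotated exons, and are written 5′ to 3′ on the gene's strand. COL4A1 and COL4A2 are neighbours on opposite strands, and the stretch at chr13:110307158-110307257 (minus strand, 100 bases, 14 CG) lies upstream of COL4A1. The stretches of FN1 (chr2:215436074-215436306, minus strand, 31 CG), THBS1 (chr15:39580829-39581078, plus strand, 24 CG) and NID1 (chr1:236065110-236065340, minus strand, 27 CG) are likewise rich in CG. That of POSTN (chr13:37598845-37599018, minus strand) holds 1 CG.
COL4A1: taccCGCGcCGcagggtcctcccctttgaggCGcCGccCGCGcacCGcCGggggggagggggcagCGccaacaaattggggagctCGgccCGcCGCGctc
FN1: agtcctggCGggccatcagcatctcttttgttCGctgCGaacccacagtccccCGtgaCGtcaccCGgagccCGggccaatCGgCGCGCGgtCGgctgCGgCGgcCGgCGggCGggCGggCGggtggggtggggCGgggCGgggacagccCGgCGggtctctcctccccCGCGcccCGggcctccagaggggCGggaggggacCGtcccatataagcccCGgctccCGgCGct
THBS1: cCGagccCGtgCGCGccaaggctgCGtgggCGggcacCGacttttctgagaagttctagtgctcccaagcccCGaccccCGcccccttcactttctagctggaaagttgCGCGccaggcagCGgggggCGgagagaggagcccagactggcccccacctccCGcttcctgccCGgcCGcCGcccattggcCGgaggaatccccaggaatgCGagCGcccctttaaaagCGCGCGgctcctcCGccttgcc
NID1: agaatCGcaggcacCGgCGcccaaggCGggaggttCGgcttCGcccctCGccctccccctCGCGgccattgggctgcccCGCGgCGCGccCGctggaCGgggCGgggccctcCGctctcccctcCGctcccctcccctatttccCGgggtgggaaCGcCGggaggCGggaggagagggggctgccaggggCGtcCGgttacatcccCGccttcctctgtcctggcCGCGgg
POSTN: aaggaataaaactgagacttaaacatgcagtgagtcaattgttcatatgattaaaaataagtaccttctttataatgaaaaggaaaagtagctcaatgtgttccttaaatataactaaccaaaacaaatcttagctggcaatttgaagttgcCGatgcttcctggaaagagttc

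Windows were found for 27 of the 40 genes, 31 windows in all, some of which overlap. AGRN, COL1A1, COL1A2, COL2A1, COL3A1, COL5A2, COL6A1, COL9A3, DCN, ELN, LAMA1, LUM and MFAP4 were not found. The median number of CG in the 300 bases was 29 (3 to 46) in windows of matrix genes and 14 (quartiles 4 and 28) over all 35116 windows. The 26 windows of genes called lower in the mean of the labelled knockouts had a median of 32 and covered the same range, from 3 in POSTN to 46 in COL18A1. Exact matches on either strand were counted for 6 motifs. GGGCGG was present in 24 of 31 windows (45.0% of all windows), CCAAT in 9 (34.6%) and TATAAA in 5 (11.5%). ACGTG was present in 6 (21.4%) and GCGTG in 12 (36.5%), both forms of the core of a hypoxia response element. CACGTG, an E-box that contains ACGTG, was present in 1 (7.26%). Among the printed stretches, those of COL4A1, FN1, THBS1 and NID1 hold both GGGCGG and CCAAT, while that of POSTN holds neither and has TATAAA. These matches describe letters only and were not tested against the changes.

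The 2 control groups first show which matrix genes these cells transcribe. Levels of different genes are compared as CPM per kilobase of exon, and the plot of both controls shows every gene. In H2O the highest level was that of BGN (biglycan, a small leucine-rich proteoglycan), at 101 and 99.1 CPM per kilobase. It was followed by the laminin chains LAMC1 (mean 65.6) and LAMB1 (55.6), then FBLN1 (fibulin, 21.4) and VCAN (versican, a large hyaluronan-binding proteoglycan, 13.8). Neighbours among the first 16 places in H2O did not overlap between libraries. In WT the order was BGN (64.5), SPARC (a collagen-binding glycoprotein, 49.7), LAMC1 (47.8), LAMB1 (36.0) and FBLN1 (25.4), and the libraries of SPARC and LAMC1 overlapped.

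**Figure D1:**
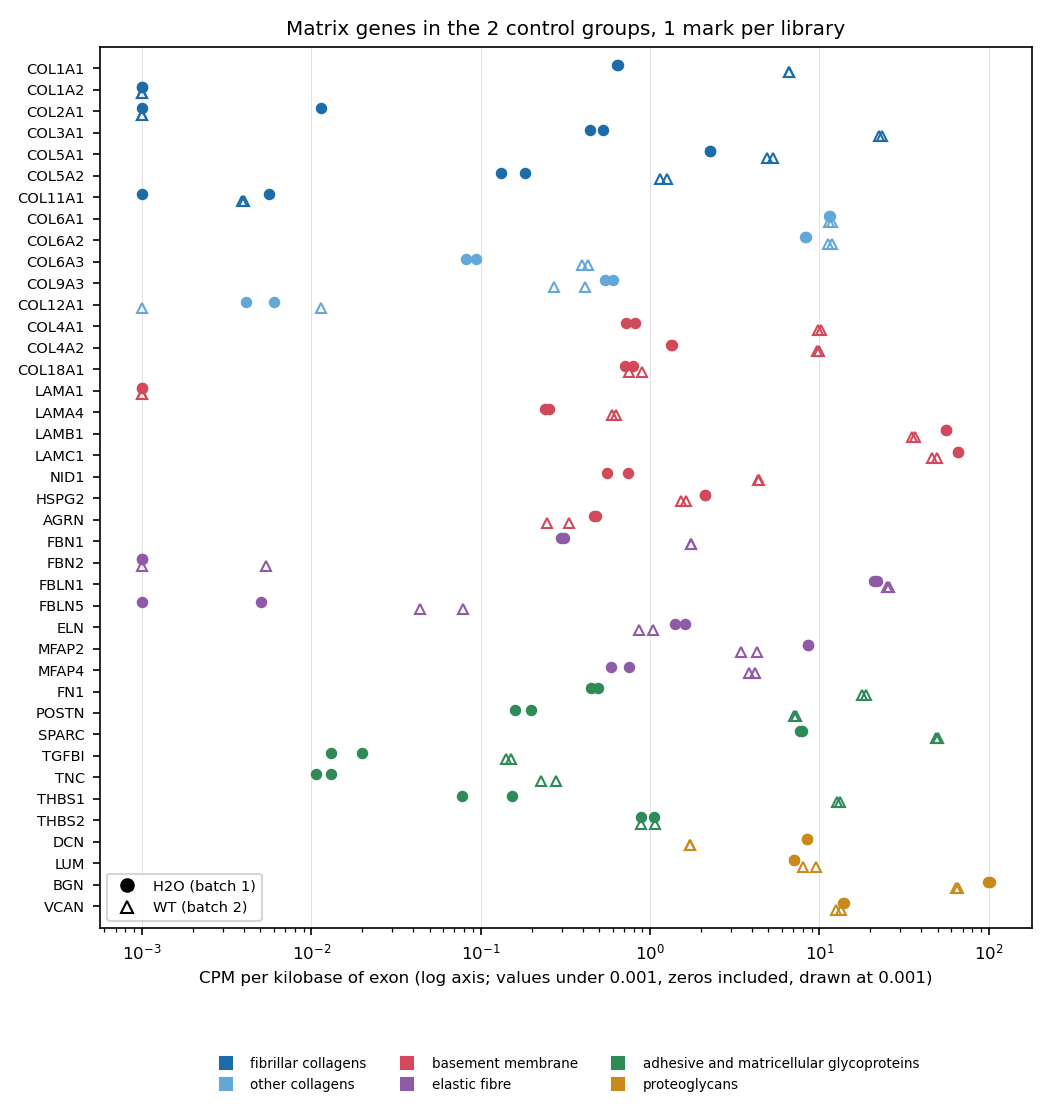
Level of each of the 40 matrix genes in the 2 control groups. The horizontal log axis gives CPM per kilobase of exon, values under 0.001 are drawn at 0.001, each mark is 1 library (filled circles H2O, open triangles WT), and colours give the class. BGN lies furthest right in both groups, and COL1A2 and LAMA1 are at 0 in all 4 control libraries.

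Chains that assemble into 1 trimer were at unequal levels in some cases and at like levels in others. COL1A1 encodes the major chain of type I collagen, with 64.9 and 64.7 CPM in WT against 6.36 and 6.30 CPM with H2O. Its usual partner COL1A2 had 0 counts in both controls, which allows up to 0.0269 CPM in WT and 0.0382 CPM in H2O, and 7 counts in total over the other 10 libraries. For type VI collagen, COL6A1 and COL6A2 were both at 11.6 CPM per kilobase in WT, while the third chain COL6A3 was at 0.416. In H2O these 3 chains were at 11.5, 8.28 and 0.0873. For type IV collagen, COL4A1 and COL4A2 overlapped in WT, at means of 9.97 and 9.83 CPM per kilobase, but not in H2O, at 0.767 and 1.33. Among laminin alpha chains, LAMA1 had 0 counts in both controls, LAMA4 was at 0.246 CPM per kilobase in H2O and 0.614 in WT, and LAMA5, which is outside the 40, was at 3.82 and 2.59. COL2A1, COL11A1, COL12A1, FBN2 and FBLN5 were also near 0, with no more than 22 counts in a library.

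Some matrix genes were at far lower levels in H2O than in WT, although both are unaltered SK-N-BE2 cells. FN1 (fibronectin) was at 7.69 and 8.45 CPM in H2O and at 325 and 306 in WT. THBS1 (thrombospondin) was at 1.41 and 0.706 CPM against 121 and 116, and COL3A1 (type III collagen) at 2.99 and 3.58 against 158 and 152. DCN (decorin, a small leucine-rich proteoglycan) had the opposite order, at 105 and 106 CPM in H2O and 21.5 in each WT library. All 13 mitochondrial genes had 0 counts in the H2O libraries, while none was at 0 in WT, and the counting releases differed. Mitochondrial counts thus enter the totals behind CPM in WT only. The H2O and WT groups differ in batch, in culture and in the H2O given, which cannot be told apart. No test was therefore made between them, and all comparisons that follow lie within a batch.

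The comparison of the labelled knockouts with WT asks how matrix transcripts differ where TET2 is labelled as lost. Of 35 matrix genes tested, 27 were lower and 2 were higher in the average of the 3 labelled knockouts, at an edgeR adjusted p under 0.05. Over all 14061 genes tested, 18.9% were called, 11.4% lower and 7.54% higher. The median log2 fold change of the 35 genes was -0.69, beside 0.00 over all genes. At least 2-fold differences were found for 11 genes, all lower, where 1.76% of all genes were called lower by that rule. Taken by class, 7 of 7 adhesive glycoproteins were lower, 7 of 9 basement membrane genes, 4 of 5 fibrillar collagens, 3 of 4 other collagens, 4 of 6 elastic fibre genes and 2 of 4 proteoglycans. DCN and FBLN1 were the 2 higher genes. COL1A2, COL2A1, COL12A1, LAMA1 and FBN2 had too few counts to be tested.

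In bulk RNA, fewer cells of a type and less RNA per cell cannot be told apart. Markers of other cell types therefore stand beside these values, and their counts beside 11.4% of all genes lower and 7.54% higher. The 8 endothelial markers summed to 13.7 and 13.9 CPM in WT and to 2.22 to 5.72 CPM in the labelled knockouts, none was at 0 in both libraries of a group of batch 2, and 5 of 8 were called lower (PECAM1, CDH5, KDR, TIE1 and TEK). Mesenchymal or fibroblast markers summed to 1196 and 1204 CPM in WT and to 1125 to 1237 in the labelled knockouts, with 2 of 7 called lower (PDGFRA and PDGFRB), while PRRX1 was at 0 in knockouts 1 and 3 and FAP in knockouts 2 and 3. Of 5 smooth muscle or pericyte markers tested, ACTA2 and TAGLN were lower and RGS5 higher, with sums of 6655 to 6684 CPM in WT and 6806 to 7134 in the labelled knockouts. Sums do not show single markers, and ACTA2 and TAGLN were each at least 2-fold lower. In the mean, log2 fold changes ran from -2.05 to 0.80 in this list. They ran from -3.59 to 0.11 in the mesenchymal or fibroblast list. Of 3 Schwann or glial markers tested 1 was lower (sums of 11.1 to 11.9 CPM in WT and 5.02 to 8.18 in the labelled knockouts), and of 1 leukocyte marker tested 0 were called (10.5 to 11.8 and 7.12 to 15.6). The part of these differences in the matrix genes was not tested.

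**Figure D2:**
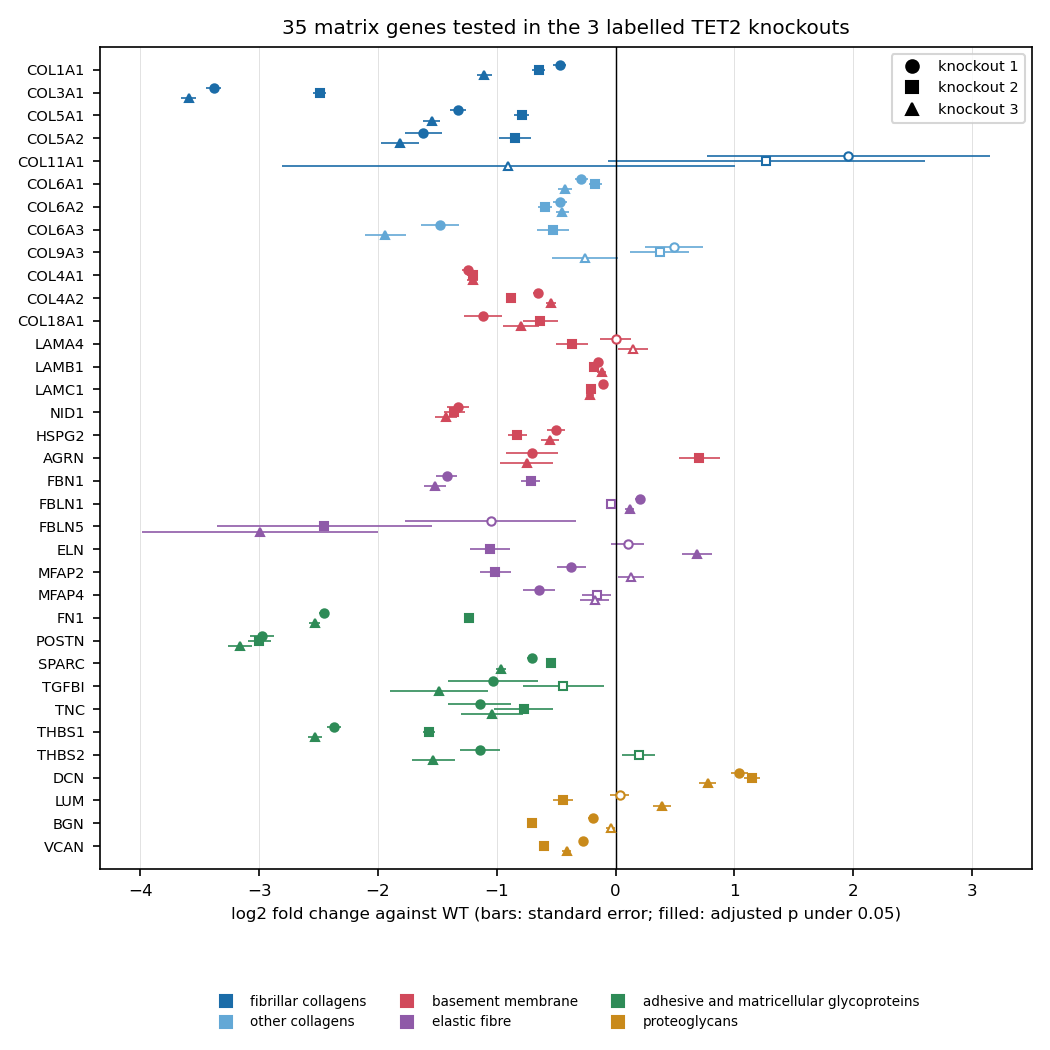
Log2 fold change against WT of the 35 matrix genes tested, in each labelled knockout (circle 1, square 2, triangle 3). Bars are standard errors, filled marks have an adjusted p under 0.05, and colours give the class. COL3A1 and POSTN lie furthest left in all 3, DCN lies right of 0 in all 3, and AGRN, ELN and LUM have filled marks on both sides of 0.

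Among fibrillar collagens, COL3A1 had the largest difference. Its level was 158 and 152 CPM in WT, 15.1 and 14.6 in knockout 1, 27.2 and 27.9 in knockout 2, and 12.4 and 13.3 in knockout 3, so that no labelled knockout library came near WT. Against WT the log2 fold change was -3.38 (SE 0.06), -2.49 (SE 0.05) and -3.59 (SE 0.06) for knockouts 1, 2 and 3, and the edgeR adjusted p for the average was 7.8e-154. COL5A1 and COL5A2 encode chains of type V collagen, which starts and limits the growth of fibrils. COL5A1 was at 59.0 and 54.9 CPM in WT and at 18.8 to 33.3 in the 6 labelled knockout libraries (log2 fold change of the average -1.22, SE 0.05, edgeR adjusted p 5.73e-60). COL5A2 was at 8.40 and 9.26 CPM in WT and at 2.44 to 5.02 in the labelled knockouts (-1.43, SE 0.12, edgeR adjusted p 3.56e-24). For both, knockout 2 lay above knockouts 1 and 3 and below WT. COL1A1 was at 64.9 and 64.7 CPM in WT, 44.2 and 49.1 in knockout 1, 40.4 and 42.3 in knockout 2, and 31.3 and 28.8 in knockout 3, a smaller fall (-0.74, SE 0.05, edgeR adjusted p 6.95e-37). COL11A1 had 2 to 10 counts where it was detected and was not called.

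Of the type VI collagen chains, COL6A3 differed most. It was at 7.77 and 8.42 CPM in WT, 2.91 and 2.90 in knockout 1, 5.99 and 5.21 in knockout 2, and 2.32 and 1.87 in knockout 3 (log2 fold change of the average -1.32, SE 0.12, edgeR adjusted p 3.89e-20). COL6A1 and COL6A2 fell by 0.29 and 0.50 on the log2 scale, so the chain with the lowest level per kilobase had the largest fall. COL9A3, a chain of fibril-associated type IX collagen, was at 1.31 and 2.00 CPM in WT and 1.18 to 2.44 in the labelled knockouts, and was not called. About 3.20% of its exon bases are shared with TCFL5 on the opposite strand.

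In the basement membrane class, NID1 and COL4A1 fell most. NID1 (nidogen, which links laminin to type IV collagen) was at 25.2 and 25.4 CPM in WT and at 9.29 to 10.3 in all 6 labelled knockout libraries. Its log2 fold change was -1.33, -1.36 and -1.43 for knockouts 1, 2 and 3 (SE 0.09 each), with no difference called among them (edgeR adjusted p 0.739). COL4A1 was at 149 and 143 CPM in WT and between 60.3 and 65.4 in the labelled knockouts, with log2 fold changes of -1.25, -1.20 and -1.20 (SE 0.05 each, edgeR adjusted p among knockouts 0.741). Its neighbour and partner chain COL4A2 was at 192 and 187 CPM in WT and fell less, to 118 and 123, 102 and 104, and 129 and 131 CPM (-0.69 on average, SE 0.03). HSPG2 (perlecan, -0.63, SE 0.06) and COL18A1 (the endostatin precursor, -0.85, SE 0.12) were also lower, but share 11.7% and 18.5% of their exon bases with LDLRAD2 and SLC19A1 on the opposite strand.

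The abundant laminin chains differed little. LAMC1 was at 416 and 391 CPM in WT and at 346 to 378 in the labelled knockouts (log2 fold change of the average -0.18, SE 0.03, edgeR adjusted p 1.16e-08). LAMB1 was at 297 and 285 CPM in WT and 251 to 271 in the labelled knockouts (-0.15, SE 0.03, edgeR adjusted p 6.2e-06). No labelled knockout library reached a WT library in either gene, which was not counted over all genes. LAMA4, at 7.19 and 7.53 CPM in WT and 5.69 to 9.07 in the labelled knockouts, was not called in the average (-0.07, SE 0.11, edgeR adjusted p 0.71), nor was AGRN (agrin, -0.25, SE 0.17, edgeR adjusted p 0.326).

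Adhesive and matricellular glycoproteins held 3 of the 5 largest falls among the 35 genes tested. POSTN (periostin) was at 39.8 and 38.9 CPM in WT and at 4.39 to 5.40 in the 6 labelled knockout libraries. Its log2 fold change was -2.98, -3.00 and -3.16 for knockouts 1, 2 and 3 (SE 0.10 each), and no difference was called among them (edgeR adjusted p 0.592). FN1 was at 325 and 306 CPM in WT, 57.7 and 57.6 in knockout 1, 132 and 137 in knockout 2, and 54.3 and 54.7 in knockout 3 (-2.07 on average, SE 0.03, edgeR adjusted p 2.53e-145). THBS1 was at 121 and 116 CPM in WT, 22.2 and 23.5, 38.3 and 41.6, and 21.5 and 19.5 in knockouts 1, 2 and 3 (-2.16, SE 0.04, edgeR adjusted p 2.83e-120), with 4.89% of its exon bases shared with FSIP1. The stretches printed above are CG-rich for FN1 and THBS1 and CG-poor for POSTN. They were printed because these genes differed greatly, so they cannot relate CG content to the falls, which was not tested. SPARC was at 227 and 234 CPM in WT and 113 to 162 in the labelled knockouts (-0.74, SE 0.03). TNC (tenascin, -0.98, SE 0.21), THBS2 (-0.83, SE 0.13) and TGFBI (-0.99, SE 0.30) were lower at levels of 1.09 to 6.82 CPM in WT, and the call for TGFBI was lost in DESeq2 (adjusted p 0.0884) and without WT replicate 1 (0.0693) or 2 (0.11).

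Of the elastic fibre genes, FBN1 (fibrillin, the microfibril scaffold) was at 28.2 and 28 CPM in WT, 10.6 and 10.4 in knockout 1, 17.7 and 16.5 in knockout 2, and 9.69 and 9.92 in knockout 3. The average log2 fold change was -1.22 (SE 0.07, edgeR adjusted p 5.77e-43). MFAP2 and MFAP4, microfibril-associated glycoproteins, fell by 0.42 and 0.33 on the log2 scale in the mean. MFAP2 was not called in knockout 3 (0.13, SE 0.11), nor was MFAP4 in knockouts 2 (-0.16, SE 0.12) and 3 (-0.18, SE 0.12). Without WT replicate 2 neither was called (MFAP2 -0.25, edgeR adjusted p 0.233, and MFAP4 -0.26, adjusted p 0.226). FBLN5 (fibulin) was called lower (-2.17, SE 0.67, edgeR adjusted p 0.0116), but had 12 and 22 counts in WT and 0 to 12 in the labelled knockouts. Without WT replicate 2 the FBLN5 value was not called (-1.69, adjusted p 0.297), nor was it in DESeq2 (adjusted p 0.114), and without knockout 2 replicate 1 it was -3.71. FBLN1 was at 188 and 182 CPM in WT and 178 to 217 in the labelled knockouts, and its rise of 0.10 (SE 0.03, edgeR adjusted p 0.0161) was lost without WT replicate 2 (adjusted p 0.302), knockout 1 replicate 2 (0.0558) or knockout 3 replicate 1 (0.0571).

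Proteoglycans held the clearest rise. DCN was at 21.5 CPM in both WT libraries, 45.9 and 42.7 in knockout 1, 47.8 in both libraries of knockout 2, and 36.3 and 37.4 in knockout 3. Its log2 fold change was 1.04, 1.15 and 0.77 (SE 0.07 each), and it was the single matrix gene called higher in all 3, beside 1.43% of all genes. BGN and VCAN fell by 0.31 and 0.43 on the log2 scale (SE 0.03 each). BGN was at 153 and 157 CPM in WT, 129 and 143 in knockout 1, 95.4 and 95.1 in knockout 2, and 153 and 148 in knockout 3, where it lay just below both WT libraries and was not called (-0.04, SE 0.04, edgeR adjusted p 0.524). LUM (lumican) was not called in the average (-0.01, SE 0.06, edgeR adjusted p 0.959).

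**Figure D3:**
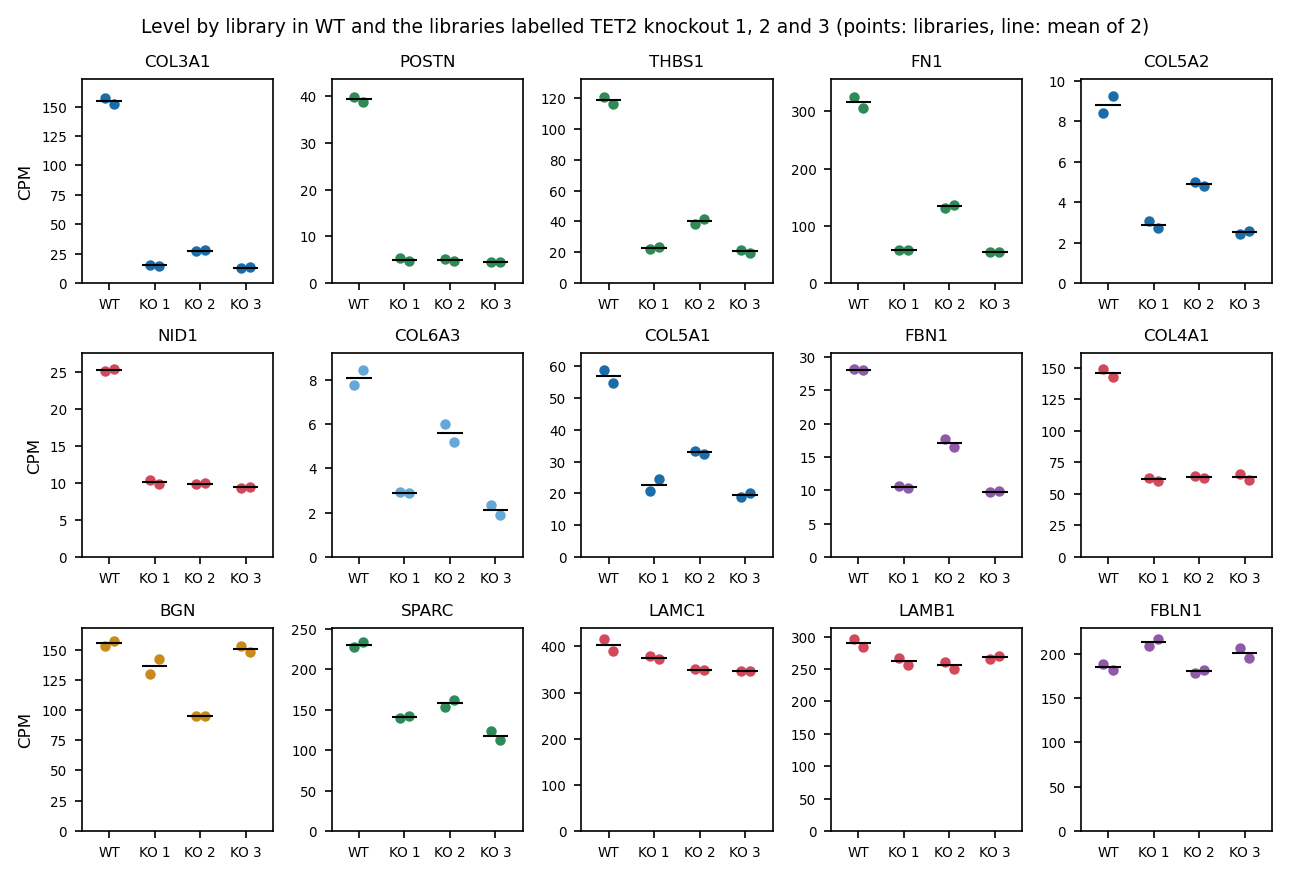
CPM by library in WT and the libraries labelled TET2 knockout (KO) 1, 2 and 3, for the 10 genes with the largest called change in the average and at least 1 CPM, then the 5 with the highest level per kilobase in WT. Points are libraries, lines are means of 2, and each vertical axis starts at 0 with its own range. WT is above all labelled knockout libraries in the first 10 panels, while FBLN1 is higher in knockouts 1 and 3.

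The labelled knockouts share the WT libraries, so their calls are given side by side. Knockout 1 had 27 matrix genes lower and 2 higher of 35, where 17.5% of all genes were called (9.72% lower and 7.79% higher). Knockout 2 had 27 and 2, where 26.3% were called (14.3% lower and 12% higher), and knockout 3 had 25 and 4, where 18.9% were called (9.96% lower and 8.9% higher). In all 3 comparisons 21 genes were lower, beside 2.84% of all genes. Among them, TNC lost its call in knockout 2 in DESeq2 (-0.78, adjusted p 0.0784). Leaving out a library also removed calls of TNC in each labelled knockout, LAMB1 in knockouts 1 and 3, LAMC1 in knockout 1 and COL6A1 in knockout 2. Without WT replicate 1 the LAMC1 value for knockout 1 was -0.05. A call in at least 1 comparison was found for 33 matrix genes, a count not made over all genes. The levels of 25 of 35 genes differed among the labelled knockouts in a direct test, where 37.6% of all genes did. For 7 of them (ELN, THBS2, AGRN, COL6A3, FN1, MFAP2 and COL3A1) the largest difference between labelled knockouts was at least 2-fold, as for 3.85% of all genes. FN1 had the smallest adjusted p of these (edgeR, 6.62e-82), followed by BGN (3.34e-35), THBS1 (2.42e-32), COL3A1 (5.04e-31) and ELN (1.09e-21). For FN1, THBS1 and COL3A1, knockout 2 lay above knockouts 1 and 3, and for BGN it lay below.

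AGRN, ELN and LUM were called in opposite directions in different labelled knockouts, a pattern not counted over all genes. ELN (elastin) was at 5.66 and 6.83 CPM in WT, 6.39 and 7.01 in knockout 1, 2.76 and 3.24 in knockout 2, and 11.0 and 9.01 in knockout 3. It was lower in knockout 2 (log2 fold change -1.06, SE 0.17) and higher in knockout 3 (0.68, SE 0.13). LUM had the same pattern, at 21.3 and 25.6 CPM in WT, 16.5 and 18.1 in knockout 2 (-0.44, SE 0.08) and 31 and 30.6 in knockout 3 (0.39, SE 0.07). AGRN had the opposite one, at 3.58 and 2.64 CPM in WT, 4.99 and 5.14 in knockout 2 (0.70, SE 0.17), and 1.73 to 2.07 in knockouts 1 and 3 (-0.71 and -0.75, SE 0.22 each). Each AGRN call was lost on leaving out a library. Without WT replicate 1 the values were -0.47 and -0.51 for knockouts 1 and 3 (edgeR adjusted p 0.299 and 0.25), and without WT replicate 2 the value for knockout 2 was 0.49 (0.0813). The former 2 calls were also lost without knockout 1 replicate 1 (-0.59, adjusted p 0.136) and without knockout 3 replicate 2 (-0.68, adjusted p 0.0631).

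Other genes of the matrix pathway were counted from lists chosen with earlier results of these data known. Of 20 other collagens and laminins tested, 6 were lower and 0 higher in the mean of the labelled knockouts, where 11.4% of all genes were lower and 7.54% higher. The same shares stand beside the counts of receptors and proteases that follow. The named members were COL13A1 (a transmembrane collagen, log2 fold change -1.07, SE 0.24), LAMB2 (-0.26, SE 0.06) and LAMA5 (-0.14, SE 0.05). LAMA5 was at 37.8 and 36.1 CPM in WT and 30.7 to 38.0 in the labelled knockouts, which overlap. Of 26 matrix receptors, 13 were lower and 2 higher. ITGA5, the alpha chain of the main fibronectin receptor, was at 11.7 and 13.8 CPM in WT, 2.13 and 3.14 in knockout 1, 8.47 and 10.2 in knockout 2, and 2.15 and 3.55 in knockout 3 (-1.64, SE 0.11, edgeR adjusted p 2.04e-32). ITGA3, a laminin-binding integrin chain (-1.63, SE 0.07), and ITGA8 (-1.48, SE 0.14) were also lower in every labelled knockout library. Of 25 matrix proteases and inhibitors, 11 were lower and 2 higher. MMP1 (interstitial collagenase) was at 112 and 114 CPM in WT, 28.4 and 26.8, 77.7 and 81.2, and 17.9 and 18.2 in knockouts 1, 2 and 3 (-1.73, SE 0.04, edgeR adjusted p 3.76e-103). TIMP3, a matrix-bound inhibitor of metalloproteinases, was at 20.7 and 18.7 CPM in WT and between 11.5 and 14.3 in the labelled knockouts (-0.59, SE 0.07, edgeR adjusted p 1.89e-12). As for FN1, knockout 2 lay between WT and the other two in ITGA5 and MMP1. ADAMTS14, a procollagen-processing protease, had a smaller fall (-0.68, SE 0.21, edgeR adjusted p 0.0107).

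The comparison of CoCl2 at 50 µM with H2O asks how matrix transcripts respond to cobalt. Of 31 matrix genes tested, 14 were lower and 10 higher, where 61.4% of all 13636 genes were called (31.1% lower and 30.4% higher). The median log2 fold change of the 31 was -0.15, beside 0.00 over all genes. At least 2-fold differences were found for LAMA4 and MFAP2, which were lower (2.5% of all genes), and MFAP4, which was higher (2.16%). By class, 3 of 4 other collagens and 2 of 4 fibrillar collagens were lower with 0 higher, and 2 of 5 adhesive glycoproteins were higher with 0 lower. Basement membrane genes divided into 4 lower and 4 higher of 9, elastic fibre genes into 3 lower and 2 higher of 5, and proteoglycans into 2 and 2 of 4. Summed adrenergic markers were at 3739.9 and 3752 CPM with H2O and 3517 and 3569.9 at 50 µM, but 4 of 7 were called higher and 2 lower. Mesenchymal or fibroblast markers summed to 1486 and 1498 CPM with H2O and to 1857 and 1868 at 50 µM. Endothelial markers summed to 3.12 to 3.53 and 3.05 to 3.36 CPM, with 1 of 4 tested higher and 2 lower (log2 fold changes from -1.34 to 0.70). KDR and TIE1 were at 0 in both 50 µM libraries. Leukocyte markers summed to 5.12 to 5.37 CPM with H2O and 18.9 to 19.1 at 50 µM, with the 1 marker tested called higher (log2 fold change 1.86). Schwann or glial markers summed to 4.94 to 5.31 and 3.25 to 3.49 CPM, with 1 of 2 tested lower, and smooth muscle or pericyte markers to 11268 to 11417 and 11752 to 11824 CPM, with 2 of 5 higher. Of the mesenchymal or fibroblast markers, 3 were higher and 2 lower of 6 tested, and the part of all these markers in the matrix genes was not tested.

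In the basement membrane class, LAMA4 (a laminin alpha chain) was at 3.01 and 2.87 CPM with H2O, 2.16 and 2.37 at 10 µM, and 0.832 and 1.04 at 50 µM. It was the largest fall among the matrix genes tested (log2 fold change -1.64, SE 0.20, edgeR adjusted p 3.12e-13). NID1 was at 3.24 and 4.29 CPM, 2.45 and 2.32, and 1.95 and 2.01 (-0.92, SE 0.16, edgeR adjusted p 8.65e-08). HSPG2 was at 38.2 and 38.5 CPM with H2O, 31.6 and 32.8 at 10 µM, and 25.1 and 21.7 at 50 µM (-0.72, SE 0.05, edgeR adjusted p 1.19e-30). For these 3 genes, named for their large called changes, no 50 µM library overlapped H2O, and overlap was not counted over all genes. AGRN, which clusters acetylcholine receptors at the neuromuscular junction, was higher, at 5.01 and 5.17 CPM with H2O and 7.91 and 7.86 at 50 µM (0.63, SE 0.10, edgeR adjusted p 3.09e-08). COL4A1 was also higher, at 10.6 and 11.9 CPM with H2O and 15.2 and 14.2 at 50 µM (0.38, SE 0.07), as was COL4A2, at 25.6 and 25.8 against 30.2 and 31.8 (0.27, SE 0.05).

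The abundant laminin chains moved in opposite directions. LAMC1 was at 553 and 555 CPM with H2O, 539 and 546 at 10 µM, and 479 and 463 at 50 µM (log2 fold change at 50 µM -0.23, SE 0.02, edgeR adjusted p 1.81e-28). LAMB1 was at 449 CPM in both H2O libraries, 488 and 481 at 10 µM, and 506 in both libraries at 50 µM (0.17, SE 0.02, edgeR adjusted p 2.94e-18). Both differences are small, and the libraries of the 2 groups did not overlap, which was not counted over all genes.

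Among elastic fibre genes, MFAP2 was at 23.1 and 23.2 CPM with H2O, 17.2 and 17.0 at 10 µM, and 8.26 and 8.42 at 50 µM (-1.47, SE 0.07, edgeR adjusted p 7.79e-48). MFAP4 moved the other way, at 1.61 and 1.26 CPM, 2.45 and 1.78, and 3.01 and 4.28 (1.36, SE 0.17, edgeR adjusted p 2.48e-12), with 50 to 153 counts behind each value. ELN was at 10.5 and 9.18 CPM with H2O, 9.03 and 8.41 at 10 µM, and 6.08 and 5.65 at 50 µM (-0.75, SE 0.09, edgeR adjusted p 1.63e-12). FBLN1 was at 159 and 153 CPM with H2O, 147 in both libraries at 10 µM, and 170 and 171 at 50 µM (0.13, SE 0.02). FBN1, at 4.75 and 4.97 CPM with H2O and 3.46 and 4.23 at 50 µM, was called lower (-0.33, SE 0.12, edgeR adjusted p 0.0151). That call was lost in DESeq2 (adjusted p 0.149), in a fit of all 14 libraries (0.0903), without H2O replicate 2 (0.073) and without 50 µM replicate 1, which gave -0.20 (0.248).

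Of the fibrillar and other collagens among the 40 genes, those called in this comparison were all lower. COL6A2 was at 44.6 and 43.7 CPM with H2O, 35.4 and 35.7 at 10 µM, and 24.5 and 25.1 at 50 µM (-0.83, SE 0.05, edgeR adjusted p 4.39e-40), and its partner COL6A1 fell by 0.52 on the log2 scale. COL3A1 was at 2.99 and 3.58 CPM, 2.53 and 3.19, and 1.86 and 2.04 (-0.75, SE 0.16, edgeR adjusted p 2.42e-05). COL9A3 was at 2.63 and 2.92 CPM, 1.94 and 2.08, and 1.76 and 1.60 (-0.73, SE 0.17, edgeR adjusted p 0.000117). COL5A1 fell by 0.46 (SE 0.06). COL1A1 was at 6.36 and 6.30 CPM with H2O and 5.51 and 5.54 at 50 µM and was not called (-0.20, SE 0.10, edgeR adjusted p 0.0936).

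FN1 and SPARC were the higher adhesive glycoproteins. FN1 was at 7.69 and 8.45 CPM with H2O, 8.54 and 9.19 at 10 µM, and 10.5 and 10.0 at 50 µM (0.35, SE 0.08, edgeR adjusted p 0.000179). SPARC was at 36.6 and 35.5 CPM, 33.6 and 34.8, and 47.0 and 47.8 (0.40, SE 0.04, edgeR adjusted p 5.5e-17). THBS1 had 28 to 55 counts in batch 1 and was not called (0.33, SE 0.24), but without H2O replicate 1 it was 0.91 (edgeR adjusted p 0.0107), and 0.98 at 10 µM (0.0177). THBS2 was not called either (0.15, SE 0.10), but was without H2O replicate 2 (0.28, edgeR adjusted p 0.0401).

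Of the proteoglycans, DCN was at 105 and 106 CPM with H2O, 123 and 118 at 10 µM, and 160 and 164 at 50 µM (0.62, SE 0.03, edgeR adjusted p 6.21e-54). BGN was at 243 and 238 CPM, 247 and 249, and 283 and 281 (0.23, SE 0.02, edgeR adjusted p 1.15e-21). VCAN was at 203 in both libraries with H2O, 204 and 203 at 10 µM, and 168 and 163 at 50 µM (-0.30, SE 0.02, edgeR adjusted p 3.63e-26). LUM fell by 0.46 (SE 0.06). Thus 2 of the small leucine-rich proteoglycans rose and 1 fell at the same dose.

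**Figure D4:**
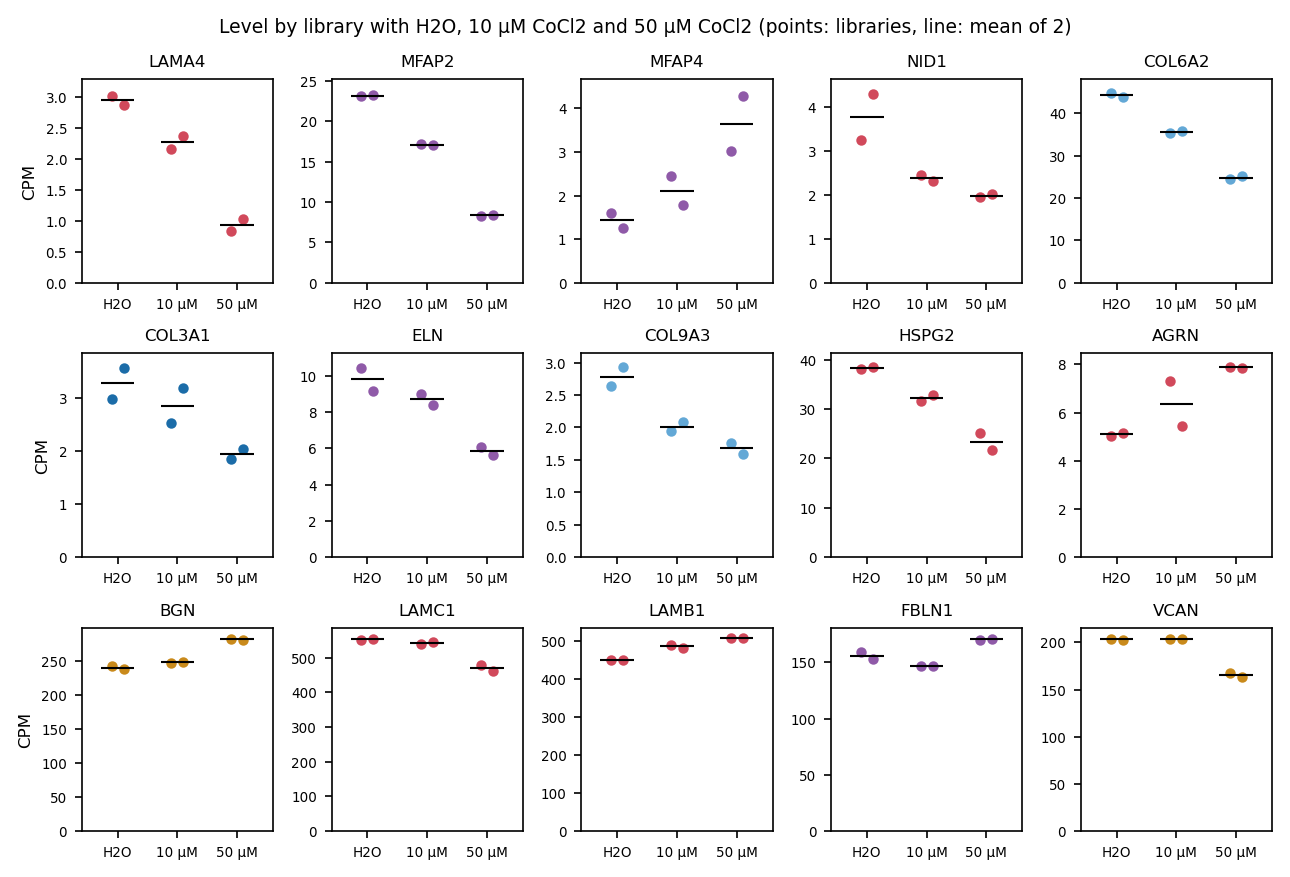
CPM by library with H2O, 10 µM and 50 µM CoCl2, for the 10 matrix genes with the largest called change at 50 µM and at least 1 CPM, then the 5 with the highest level per kilobase in H2O. Points are libraries, lines are means of 2, and each vertical axis starts at 0 with its own range. LAMA4, MFAP2 and COL6A2 step down from H2O through 10 µM to 50 µM, while MFAP4 and AGRN lie highest at 50 µM.

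At 10 µM, 8 of 31 matrix genes were lower and 7 higher than with H2O, where 22.7% of all genes were called (11.1% lower and 11.6% higher). None differed at least 2-fold, beside 0.455% of all genes. The largest called differences were those of POSTN (0.869 and 1.08 CPM with H2O, 1.85 and 1.44 at 10 µM, log2 fold change 0.74, SE 0.22, edgeR adjusted p 0.0075), NID1 (-0.66, SE 0.15, edgeR adjusted p 0.00016) and MFAP4 (0.55, SE 0.19, edgeR adjusted p 0.0281). POSTN had 34 to 65 counts in these libraries, and its call was lost without H2O replicate 1 (adjusted p 0.127), without 10 µM replicate 1 (0.167) and in the fit of all 14 libraries (0.142). The NID1 call was lost without H2O replicate 2 (0.0708) and in DESeq2 (0.0639). The MFAP4 call was lost in DESeq2 (0.276), without the filter on low counts (0.091), with the older quasi-dispersion method (0.0515), in the fit of all 14 libraries (0.28), without H2O replicate 2 (0.274), and without 10 µM replicate 1, which gave 0.31 (0.424). DESeq2 called 6 matrix genes at this dose and the fit of all 14 libraries called 7. COL9A3 and POSTN had no adjusted p in DESeq2 and are counted there as not called.

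Tested directly, 11 matrix genes were lower and 11 higher at 50 µM than at 10 µM, where 52.8% of all genes were called (26.5% lower and 26.2% higher). LAMA4 (-1.27, SE 0.21) and MFAP2 (-1.03, SE 0.07) were at least 2-fold lower, beside 0.953% of all genes. Of the 14 genes lower at 50 µM than with H2O, the 10 µM mean lay between the other two means for 13, the exception being VCAN. Of the 10 higher genes it lay between for 8, the exceptions being FBLN1 and SPARC. This order was not counted over all genes. Both sets were chosen for a difference between H2O and 50 µM in the same libraries. FBLN1 was lower at 10 µM (-0.09, SE 0.02, edgeR adjusted p 0.00357) and higher at 50 µM than with H2O, and the former call was lost in DESeq2 (adjusted p 0.0822), without H2O replicate 1 (0.183) and in the fit of all 14 libraries (0.183). POSTN was higher at 10 µM and lower again at 50 µM (50 µM against 10 µM -0.89, SE 0.24, edgeR adjusted p 0.000758).

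Other genes of the matrix pathway were called in both directions at 50 µM. These counts stand beside 31.1% of all genes lower and 30.4% higher. Of 17 other collagens and laminins tested, 7 were lower and 5 higher. COL9A2, a type IX chain like COL9A3, was at 6.82 and 7.29 CPM with H2O, 3.90 and 3.91 at 10 µM, and 2.62 and 2.57 at 50 µM (-1.44, SE 0.12, edgeR adjusted p 4.3e-22). LAMB3 (0.80, SE 0.19) and COL7A1, the anchoring fibril collagen (0.72, SE 0.14), were higher. LAMA2, a laminin alpha chain named after its values were seen because its mean was under 1 CPM, had 7 and 8 counts with H2O and 54 and 60 at 50 µM (3.14, SE 0.33, edgeR adjusted p 1.9e-16). Thus LAMA2 rose where LAMA4 fell, both from low levels. In the list of other collagens and laminins, 3 genes were at least 2-fold lower and 1 at least 2-fold higher (2.5% and 2.16% of all genes). Log2 fold changes in that list ran from -2.73 to 3.14. Of 24 matrix receptors, 10 were lower and 10 higher. ITGA9, ITGA4 and ITGB5 had the largest differences, all lower. ITGB5 was at 96.6 and 99.4 CPM with H2O, 63.3 and 64.1 at 10 µM, and 45.2 and 44.6 at 50 µM (-1.13, SE 0.03, edgeR adjusted p 3.78e-73), ITGA9 at 12.5 and 12.9 CPM with H2O and 5.28 and 4.62 at 50 µM (-1.37, SE 0.09), and ITGA4 at 36.7 and 38.4 against 16.9 and 16.7 (-1.17, SE 0.05). Of 25 matrix proteases and inhibitors, 9 were lower and 11 higher. The procollagen protease gene ADAMTS3 was at 75.5 and 74.3 CPM with H2O and 38.7 and 37.5 at 50 µM (-0.98, SE 0.04). MMP14 (membrane-type metalloproteinase, -0.95, SE 0.06) and MMP11 (-0.93, SE 0.07) were also lower.

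Across the 2 experiments, which share no libraries, 31 matrix genes were tested in both. Joint calls were not counted over all genes. Taken singly, 61.4% of all genes were called at 50 µM and 18.9% in the mean of the labelled knockouts. COL3A1, COL5A1, COL6A1, COL6A2, LAMC1, NID1, HSPG2, FBN1, MFAP2 and VCAN were lower both at 50 µM CoCl2 and in the mean of the labelled knockouts. COL4A1, COL4A2, LAMB1, MFAP4, FN1, SPARC and BGN were higher at 50 µM and lower in the labelled knockouts. FBLN1 and DCN were higher in both. Another 7 genes (COL1A1, COL5A2, COL6A3, COL18A1, POSTN, THBS1 and THBS2) were lower in the mean of the labelled knockouts and not called at 50 µM. COL9A3, LAMA4, ELN and LUM were lower and AGRN higher at 50 µM, and these 5 were not called in that mean. Of them, LAMA4, ELN, LUM and AGRN were called in at least 1 labelled knockout. The LAMA4 call was in knockout 2 alone and was lost in DESeq2 (-0.37, adjusted p 0.0752). Without 1 library of WT or knockout 2 that LAMA4 value ran from -0.34 to -0.41, and whichever of these libraries was left out, it was not called. The difference between the experiments was not tested. NID1 was the 1 gene among the 10 largest called changes of both experiments besides COL3A1. FN1, THBS1, POSTN, COL3A1 and COL4A1 began from far lower levels in H2O than in WT, as given above, so the starting points of the 2 experiments differ.

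**Figure D5:**
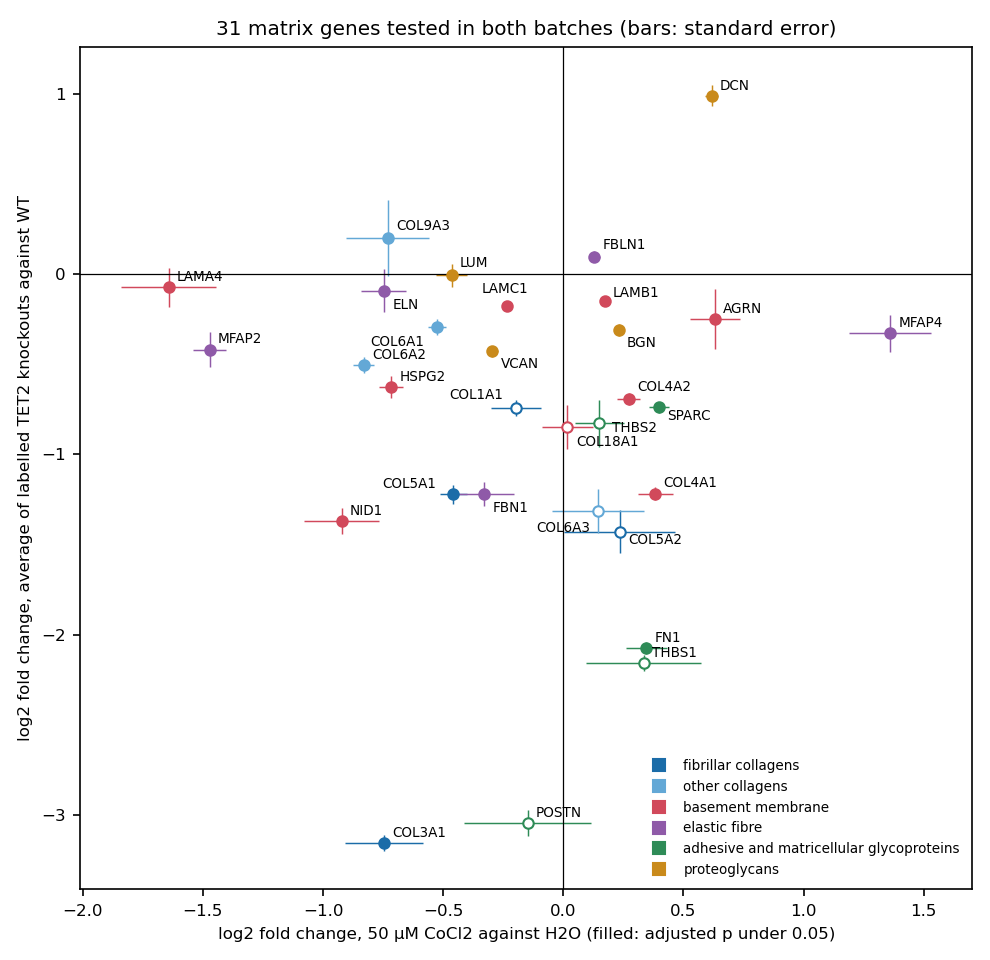
Log2 fold change of 31 matrix genes at 50 µM CoCl2 against H2O (horizontal) and in the average of the labelled TET2 knockouts against WT (vertical). Bars are standard errors, filled marks have an adjusted p under 0.05 at 50 µM, and colours give the class. Most genes lie below 0 on the vertical axis on both sides of the horizontal 0, and DCN lies at 0.62 and 0.99.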

How the data were processed

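Per the file headers, the authors counted reads per gene with featureCounts (exons, gene names, paired mode, GENCODE protein-coding genes, no strand option), in different releases for the 2 batches, and deposited raw counts. The submitters' processing notes name Trimmomatic 0.36, STAR 2.6.1d, Subread 1.5.3 and GRCh38. Libraries were strand-specific, yet without the strand option 7 of the 40 genes share exon bases with a gene on the opposite strand.

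From these deposited counts, each batch was fitted over all genes with edgeR 4.0.16 (R 4.3.3): filterByExpr, TMM, 1 coefficient per group, robust quasi-likelihood F-tests (legacy = FALSE) and Benjamini-Hochberg adjustment, called under 0.05. The dispersion was held at 0.0001001 or more because this release miscomputes the deviance of abundant genes below it. CPM uses TMM-scaled totals, and no pseudocount. Replicates of each group differed by more than sampling noise and were counted separately. The script was tested on simulated data. DESeq2 1.42.0 and other settings were alternatives.

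The 40 genes and all lists were chosen with earlier results of these data known. Values per library are given for the 10 called genes with the largest change (mean of at least 1 CPM) and the 5 highest per kilobase in each main comparison, the 3 largest at 10 µM, the 5 most different among knockouts, and 3 per pathway list. Replicate numbers did not pair libraries (correlations of deviations -0.04 to 0.07). A limit for 0 counts assumes 3 counts over the group and covers counting error only. Of 40 markers listed 39 were found. A few genes of the marker and protease lists are not reported here, and the counts and sums leave them out.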

Additional observations from a re-analysis of the deposited data

Results flagged for a closer look

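The difference among the 3 labelled knockouts itself was called for 25 of 35 matrix genes and 37.6% of all genes (edgeR F-test on all 3, Benjamini-Hochberg adjustment over all genes), and the values here are the span of the 3 log2 fold changes against WT. It was above 1 for ELN (1.74), THBS2 (1.73), AGRN (1.45), COL6A3 (1.41), FN1 (1.30), MFAP2 (1.14) and COL3A1 (1.10). THBS2 was at 6.82 and 5.64 CPM in WT, 2.66 and 2.97 in knockout 1, 6.06 and 8.18 in knockout 2, and 2.34 and 1.93 in knockout 3. MFAP2 was at 9.28 and 11.7 CPM in WT and at 4.79 and 5.61 in knockout 2, below knockouts 1 (8.01 and 8.19) and 3 (10.9 and 12.0). For THBS2, AGRN, COL6A3, FN1 and COL3A1 knockout 2 was the highest of the labelled knockouts, and for ELN and MFAP2 it was the lowest. Values from 0.5 to 1 were those of COL5A2 (0.97), THBS1 (0.96), LUM (0.83), FBN1 (0.81), COL5A1 (0.76), COL9A3 (0.75), BGN (0.66), COL1A1 (0.63) and LAMA4 (0.51). The COL9A3 call was lost in DESeq2 (adjusted p 0.119), without knockout 1 replicate 2 (0.0847), knockout 2 replicate 1 (0.0569) or knockout 3 replicate 1 (0.405). Smaller values were those of MFAP4 (0.49), SPARC (0.42), DCN (0.38), COL4A2 (0.34), VCAN (0.33), HSPG2 (0.33), COL6A1 (0.26), FBLN1 (0.24) and LAMC1 (0.12). The LAMC1 call was lost without knockout 1 replicate 1 (0.0701) and the HSPG2 call without knockout 2 replicate 1 (0.053). The endothelial marker sum of knockout 2 (5.11 and 5.72 CPM) also lay above those of knockouts 1 (2.22 and 2.45) and 3 (3.12 and 4.07), and its part in these differences was not tested. What else sets the labelled knockouts apart was not tested.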

How the results depend on the processing

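No called matrix gene changed direction in an alternative that was run, and 236 of 240 refitted values at 50 µM and 424 of 434 in the mean of the labelled knockouts stayed called. Genes without an adjusted p in DESeq2, as COL9A3 and POSTN at 10 µM, are counted below as not called. The count at 10 µM moved most: 15 matrix genes called in edgeR became 6 in DESeq2 and 7 in the fit of all 14 libraries (3098, 1066 and 796 over all genes), and 9 to 12 on leaving out a replicate, with 9 without 10 µM replicate 1. The 7 higher genes became 2 in DESeq2 and 2 in the fit of all 14 libraries, and 2 to 6 on leaving out a replicate (2 without 10 µM replicate 1, 4 without H2O replicate 1 or 2), and the 8 lower genes became 4 and 5. The 11 genes higher at 50 µM than at 10 µM became 6 in DESeq2 and 5 in the fit of all 14 libraries, and 7 to 9 on leaving out a replicate, with 7 without 10 µM replicate 2. Over all genes, 7198 differed between the doses in edgeR, 4758 in DESeq2 and 4674 in the fit of all 14 libraries. The 2 genes higher in the average of the labelled knockouts became 1 without WT replicate 2, knockout 1 replicate 2 or knockout 3 replicate 1, and those in knockout 2 became 1 without WT replicate 2 (1 to 2 each over the replicates left out). At 50 µM, 23 to 25 genes were called on leaving out a replicate, and 24 to 29 in the average of the labelled knockouts. Over all genes, that average had 2656 calls, and 1587 without WT replicate 1. Knockouts 1, 2 and 3 had 2462, 3698 and 2653, and as few as 1375, 2406 and 1568 without their own replicate 2, 1 and 1. With the replicate number as a block, 24 matrix genes were again called at 50 µM, and 8303 instead of 8378 over all genes. The numbers did not pair the libraries, so this block only shares a number. With 2 libraries a group, precision rests on the spread pooled over a batch, and a lone library left after leaving 1 out is assumed to vary like the other groups. The causes of these movements were not tested.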
